A study of Mus musculus with 23 samples.

Results

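Polycomb repressive complex 2 (PRC2) and the chromatin protein Phf6 were followed through 10 genes: Ezh1, Ezh2, Eed, Suz12, Rbbp4, Rbbp7, Jarid2, Mtf2, Phf19 and Phf6. They were taken by gene symbol from the 24475 genes of the expression table, for what they are known to do. All 10 were listed once, and all 10 passed the filter that the tests used for low values, which asked for 3 or more libraries with a scaled RPKM of 1 or above.

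RNA sequencing covered 23 mouse samples in 3 groups. The 6 thymus samples came from normal C57BL/6 mice. The 14 WT T-ALL samples were spleens with T-cell acute lymphoblastic leukemia from BALB/c Rag2-/-Il2rg-/- hosts that carried a wild type donor thymus, and the 3 Notch3 KO T-ALL samples were spleens from the same hosts carrying a Notch3 knockout donor thymus. By the methods of the study, a lobe from a newborn donor was placed under the kidney capsule, the wild type donors were B6.Ly5.1, and the knockout allele had beta-galactosidase inserted in the first coding exon of Notch3. The hosts lack T and B cells of their own but keep red cell, platelet and myeloid lineages, and the spleen cells were not sorted. The thymus group differed from both leukemia groups in tissue and in host strain as well as in disease, and these cannot be told apart. Each leukemia arose on its own in 1 mouse, so the libraries of a leukemia group are separate tumors.

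PRC2 places methyl groups on lysine 27 of histone H3, a mark that goes with silent genes. The enzyme is Ezh2 or its relative Ezh1. Eed and Suz12 hold the core together and are needed for its activity, and the histone-binding proteins Rbbp4 and Rbbp7 complete it while also serving other complexes. Jarid2 and the Polycomb-like proteins Mtf2 and Phf19 are alternative partners that help the core to find chromatin. In human T-ALL, loss-of-function lesions of EZH2, SUZ12, EED and PHF6 are known. Phf6 is not a PRC2 subunit but a PHD finger protein of the nucleolus and chromatin, encoded on the X chromosome.

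Values below are the deposited log2(scaled RPKM + 1), in which every library was scaled to the same 75th percentile. As read from the steps between low values, the depth of the libraries spanned a 5.86-fold range, and the 2 shallowest controls were thymus controls 5 and 6. Notch3 was 3.18 ± 0.58 (SD, n = 3) in Notch3 KO T-ALL, 4.75 ± 0.72 (SD, n = 14) in WT T-ALL and 3.31 ± 0.63 (SD, n = 6) in thymus, so Notch3 reads were still counted. The knockout was in the donor thymus only, so reads of host cells and of the disrupted allele cannot be told apart. A value over the whole gene does not by itself check the label. The 6 controls deviated from their mean in 3 pairs (r 0.666 for controls 1 and 3, 0.616 for 2 and 4 and 0.573 for 5 and 6, with all other pairs below 0). The labels do not say whether they came from 6 mice, and all tests against thymus count them as 6 samples.

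The leukemic spleens held other cells. All 12 T-cell markers were present in every group, with 7 lower in WT T-ALL and 6 in Notch3 KO T-ALL, and double-positive thymocyte genes such as Rag1 and Cd4 were lower for 9 of 10 in both, beside 22.3% and 16.3% of all genes called lower. Several markers of other lineages, among them Ly6g and Cd163, were below 1 scaled RPKM in every control. They could pass the filter only through the leukemias, so these lineages are given as mean levels. The neutrophil mean was 1.79 to 3.54 in controls, 4.12 to 10.71 in WT leukemias and 2.77 to 7.12 in knockout leukemias. For the macrophage markers it was 1.22 to 2.89, 2.04 to 5.60 and 4.43 to 5.40. The erythroid mean was 0.78 to 2.37 in controls, 3.86 to 7.999 in WT leukemias and 7.11 to 9.10 in knockout leukemias, the megakaryocyte mean 0.11 to 0.17, 0.53 to 3.29 and 2.35 to 3.28, and the mean of stroma and endothelium markers 0.70 to 0.87, 1.13 to 2.23 and 1.78 to 2.03. The hemoglobin genes held at most 0.117% of all scaled RPKM in a control, at most 5.92% in a WT leukemia and between 4.05% and 15.5% in the knockout leukemias. Of the 22 proliferation genes, 20 were higher in WT T-ALL. The mean of the proliferation genes was 5.30 to 6.08 in the controls and 6.28 to 7.10 in WT T-ALL, without overlap. In such bulk samples, fewer cells of a type and less RNA per cell cannot be told apart.

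WT T-ALL was set against thymus to ask how the PRC2 genes stand in a leukemia of T-cell progenitors against normal progenitor tissue. Mtf2, Rbbp7 and Rbbp4 were higher in WT T-ALL, Ezh1 and Jarid2 were lower, and Ezh2, Eed, Suz12, Phf19 and Phf6 did not pass the test. The 5 of 10 called by limma (Benjamini-Hochberg adjusted p under 0.05 over all genes tested) stand beside 51.6% of all 11919 genes called in this comparison. The 3 higher members stand beside 29.3% of genes called higher, and the 2 lower members beside 22.3% called lower. The median difference of the 10 members was 0.17 on the log2 scale, against 0.08 over all genes. As a group, then, the members were called about as often as genes in general.

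In Notch3 KO T-ALL against thymus, 3 of 10 members were called, beside 37.5% of all genes. Rbbp4 and Rbbp7 were higher, beside 21.2% of genes, and Jarid2 was lower, beside 16.3%. The median difference of the members was 0.26, against 0.08 over all genes. Both comparisons used the same 6 thymus libraries.

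**Figure D1:**
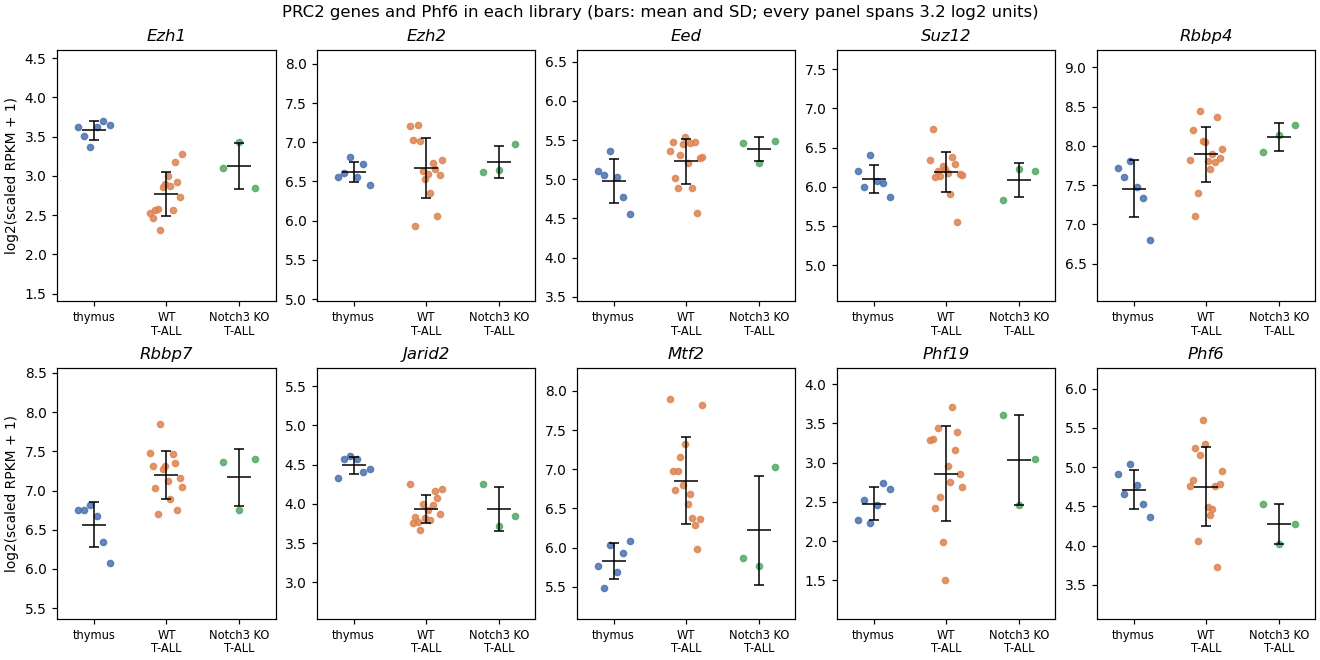
Log2(scaled RPKM + 1) of the 10 genes in every library, by group, with the mean and SD as bars; within a group the libraries run from left to right in the order of their label numbers. Every WT T-ALL point for Ezh1 and Jarid2 lies below every thymus point, while the WT T-ALL points for Ezh2, Suz12 and Phf6 lie on both sides of the thymus points.

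**Figure D2:**
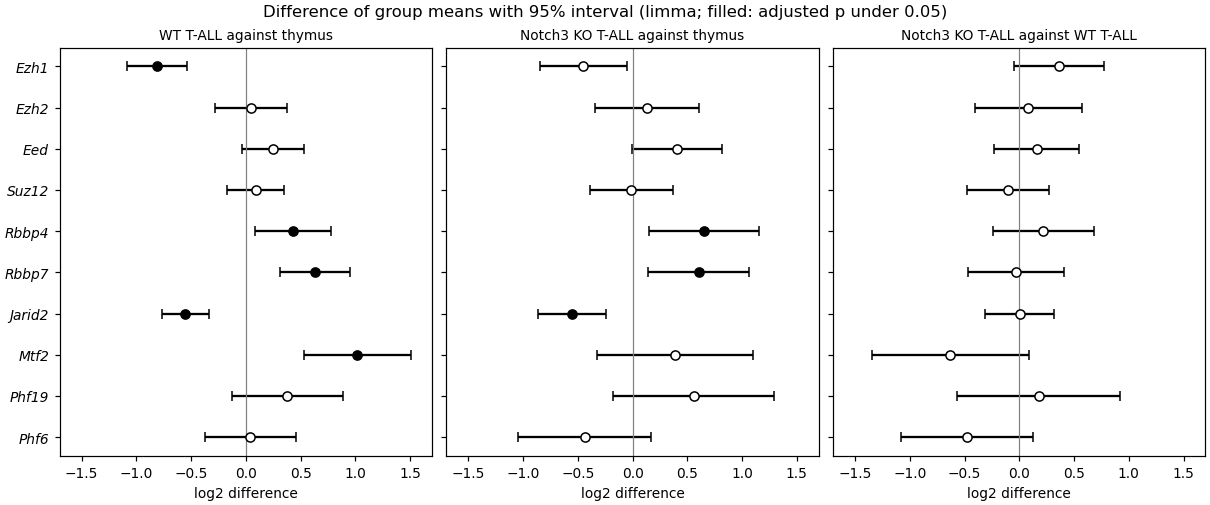
Difference of group means on the log2 scale (x axis) with its unadjusted 95% interval for each gene (y axis) in the 3 comparisons; filled points have a limma adjusted p under 0.05. Filled points number 5, 3 and 0 from left to right.

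Measured per length, Rbbp4 was the most abundant of the members in all 3 groups. Its mean scaled RPKM was 179 ± 40.3 (SD, n = 6) in thymus, 243 ± 56.4 (SD, n = 14) in WT T-ALL and 277 ± 33.7 (SD, n = 3) in Notch3 KO T-ALL. In thymus Ezh2 followed at 97.7 ± 8.94 and Rbbp7 at 95.3 ± 17.9, a pair that did not differ beyond their spread. Suz12 at 68.0 ± 9.04 and Mtf2 at 56.7 ± 8.90 overlapped, as did Eed at 31.1 ± 6.07, Phf6 at 25.5 ± 4.54 and Jarid2 at 21.5 ± 1.7. Ezh1 at 10.98 ± 0.97 and Phf19 at 4.62 ± 0.80 were the lowest and did not overlap each other. In WT T-ALL, Mtf2 at 123 ± 52.6 stood next to Rbbp7 at 149 ± 32.9 and Ezh2 at 104 ± 26.8, 3 levels that overlapped, and Ezh1 at 5.92 ± 1.37 overlapped with Phf19 at 6.81 ± 2.86 at the bottom.

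Because PRC2 genes are known targets of the E2F factors that drive the cell cycle, the start regions of the members were searched on both strands for E2F-type letters. The forms counted were TTCCCGC, with TTCGCGC beside it, and TTGCCGC, with TTGGCGC beside it. RefSeq start windows (GRCm38.p6, 250 bases before to 50 after the start) were found for 9 of the 10 members, with 11 windows in all. Of these 11 windows 4, each of another member, held such a match, beside 16.6% of the windows of tested genes. The 4 matches are shown in 30 bases each, 5′ to 3′ on the strand of the gene, with the matching letters in capitals. In Rbbp4 a TTGGCGC and, on the other strand, a TTCGCGC overlap, starting 15 bases before the start, at chr4:129335366-129335395 on the minus strand. The Ezh2 match begins 4 bases past the start, at chr6:47595008-47595037 on the minus strand. The matches of Suz12 (218 bases before, chr11:79992877-79992906, plus strand) and Phf19 (208 bases before, chr2:34914166-34914195, minus strand) lie farther before the starts used. For Ezh2 and Phf19 the start used lies inside the gene span given in the next paragraph, and so do the 30 bases shown. A match is a description of the letters and not a measured binding site.
Rbbp4: ttggtcggtgTTGGCGCGAAggcacgcgag
Ezh2: ggttgctgcgtTTGGCGCtcggtccggtcg
Suz12: gacccctcattTTCCCGCgaattcagttca
Phf19: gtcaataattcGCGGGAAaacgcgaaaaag
Of these 4 genes only Rbbp4 passed the test against thymus. The letters TGGGAA, the core bound by the Notch partner RBPJ, were also searched on both strands, and were found once in a window of Jarid2, 47 bases before the start, and once in that of Rbbp7, 4 bases past it, beside 23.0% of the windows of tested genes.

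In RefSeq (GRCm38.p6) the enzymes lie at chr6:47530274-47595270 for Ezh2 and chr11:101191115-101226463 for Ezh1. Of the core genes, Eed lies at chr7:89954654-89980976, Suz12 at chr11:79993106-80034123, Rbbp4 at chr4:129307100-129335370 and Rbbp7 at chrX:162760372-162779090. Of the partners, Jarid2 lies at chr13:44730774-44921643, Mtf2 at chr5:108065660-108109219 and Phf19 at chr2:34893752-34914353. Phf6 lies at chrX:52912214-52956961. The values are for whole genes, so exons and isoforms cannot be told apart in them.

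Ezh2, the main methyltransferase of dividing cells, ran from 6.46 through a median of 6.59 to 6.81 in thymus and from 5.93 through 6.64 to 7.22 in WT T-ALL. It was 6.62, 6.65 and 6.98 in Notch3 KO T-ALL 1, 2 and 3. The leukemias spread to both sides of the thymus range, with WT T-ALL 5, 110 and 126 below it and WT T-ALL 3, 4, 7 and 14 above. The mean difference from thymus was 0.05 in WT T-ALL (95% interval -0.28 to 0.37, limma adjusted p = 0.824) and 0.13 in Notch3 KO T-ALL (-0.35 to 0.60, adjusted p = 0.681).

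Ezh1, the paralog that predominates in resting cells, ran from 3.37 through a median of 3.62 to 3.70 in thymus, and from 2.31 through 2.79 to 3.27 in WT T-ALL. All 14 WT T-ALL libraries were below all 6 thymus libraries, a pattern without overlap that was shared by 6.64% of all genes in this direction. The difference was -0.81 (SE 0.13, limma adjusted p = 3.00e-05), a ratio of 0.569 on the scaled RPKM + 1 scale. With the proliferation genes, whose mean did not overlap between WT T-ALL and the controls, as a covariate it was -0.44 (adjusted p = 0.207) and not called. Notch3 KO T-ALL 1, 2 and 3 were at 3.11, 3.43 and 2.84, and library 2 lay inside the thymus range. Their difference from thymus was -0.45 (SE 0.19, adjusted p = 0.0685) and did not pass the test with all libraries, but it did without library 2 (-0.60, adjusted p = 0.0347). With every library kept, it was also called after rescaling the libraries to equal totals outside the mitochondrial and hemoglobin genes (-0.87, adjusted p = 0.0151), a step that moved the median of all genes from 0.08 to -0.32 in this comparison, in a fit of these groups alone (-0.45, adjusted p = 0.0346) and with an offset of 5 in place of 1 (-0.32, adjusted p = 0.0490).

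The balance of the 2 enzymes can be read within each library, since RPKM is per length. The ratio of Ezh2 to Ezh1 was 7.49 to 11.95 in thymus with a median of 8.49. In WT T-ALL it was 10.04 to 32.5 with a median of 14.95, and in Notch3 KO T-ALL it was 12.8, 10.2 and 20.3. WT T-ALL 126 at 10.04 was the only WT T-ALL library inside the thymus range, and WT T-ALL 14 was highest.

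Eed, the subunit that binds trimethylated lysine 27, was 4.56, 5.04 and 5.36 at the lowest, median and highest thymus library and 4.57, 5.30 and 5.54 in WT T-ALL. The 3 Notch3 KO T-ALL libraries were at 5.46, 5.21 and 5.49. The groups overlapped, and the differences of 0.25 in WT T-ALL (SE 0.14, limma adjusted p = 0.138) and 0.40 in Notch3 KO T-ALL (SE 0.20, adjusted p = 0.116) did not pass the test. Without WT T-ALL 126, the lowest library, the first was 0.30 with an adjusted p of 0.0456.

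Suz12 is the scaffold of the core. At its lowest, median and highest library it was 5.87, 6.06 and 6.40 in thymus and 5.55, 6.18 and 6.74 in WT T-ALL, and the Notch3 KO T-ALL libraries were at 5.84, 6.23 and 6.20. The differences from thymus were 0.09 (95% interval -0.17 to 0.35, limma adjusted p = 0.569) and -0.012 (-0.39 to 0.37, adjusted p = 0.965). Of the WT T-ALL libraries, number 4 lay above the thymus range, 126 below it and the other 12 inside.

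Rbbp7, a histone chaperone encoded on the X chromosome, was 6.08, 6.71 and 6.81 at the lowest, median and highest thymus library and 6.70, 7.21 and 7.85 in WT T-ALL. The Notch3 KO T-ALL libraries were at 7.36, 6.75 and 7.40. In WT T-ALL, 12 of 14 libraries were above all thymus libraries, and in Notch3 KO T-ALL 2 of 3 were, library 2 being the exception. The difference was 0.63 (SE 0.15, limma adjusted p = 0.00176) in WT T-ALL and 0.60 (SE 0.22, adjusted p = 0.0372) in Notch3 KO T-ALL. The Y-linked transcript Ddx3y was at 0 to 0.037 in the 6 controls, while the leukemias were mixed. Among libraries with Ddx3y below 0.5, the difference in WT T-ALL was 0.87 (adjusted p = 0.00175). The X-linked transcript Xist was 6.46 to 7.32 in the controls. In this set it was 3.61 and 4.42 in WT T-ALL 14 and 111, and 6.56 to 8.11 in WT T-ALL 3, 48 and 202. Low Ddx3y thus did not match all of them to the controls in Xist.

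Rbbp4, its close relative, was 6.81, 7.54 and 7.80 at the lowest, median and highest thymus library, 7.10, 7.87 and 8.44 in WT T-ALL and 7.92, 8.14 and 8.27 in the 3 Notch3 KO T-ALL libraries. In WT T-ALL 10 of 14 libraries exceeded all thymus libraries, with WT T-ALL 5 and 7 well inside the thymus range, and all 3 Notch3 KO T-ALL libraries exceeded them, as was so for 18.4% of all genes. The difference was 0.43 (SE 0.17, limma adjusted p = 0.0341) in WT T-ALL and 0.65 (SE 0.24, adjusted p = 0.0379) in Notch3 KO T-ALL. Thymus control 6, the shallowest control, was the lowest control for both Rbbp4 and Rbbp7.

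The ratio of Rbbp4 to Rbbp7 in scaled RPKM was 1.67 to 2.00 in the controls. The WT leukemias had 1.05 to 3.08 and the knockout leukemias 1.47 to 2.64, so both spread to both sides of the narrow thymus range.

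Rbbp7 in WT T-ALL was called in 20 of 20 runs that left out 1 library (0.53 to 0.68), but that call was lost on rescaling and with the erythroid markers (0.28, adjusted p = 0.667) or the proliferation genes (-0.074, adjusted p = 0.863) as a covariate, and the other 3 calls of these genes against thymus depended on the scaling and on single libraries. When libraries were rescaled to equal totals outside the mitochondrial and hemoglobin genes, which moved the median of all genes from 0.08 to -0.28 in WT T-ALL, the differences were 0.020 for Rbbp4 and 0.22 for Rbbp7, and neither was called. Rbbp4 in WT T-ALL lost its call without thymus control 4, 5 or 6 (0.44, 0.41 and 0.30, adjusted p = 0.0546, 0.0707 and 0.137), and without WT T-ALL 14, 36 and 48 together (0.35, adjusted p = 0.0850). In Notch3 KO T-ALL, Rbbp4 lost it without thymus control 4, 5 or 6 or without any of the 3 knockout libraries (0.52 to 0.75, adjusted p 0.0519 to 0.149 in these), and Rbbp7 lost it without thymus control 5 or 6 or Notch3 KO T-ALL 1 or 3 (0.49 to 0.56, adjusted p 0.0686 to 0.178). The mean of the proliferation genes was higher in every leukemia library than in every control, and the part of this in the results for Rbbp4 and Rbbp7 cannot be told apart from the group.

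Jarid2, which joins PRC2 to chromatin and is itself without enzyme activity, was 4.33, 4.51 and 4.604 at the lowest, median and highest thymus library. In WT T-ALL it was 3.66, 3.90 and 4.25, and in Notch3 KO T-ALL 4.25, 3.71 and 3.84. Every leukemia library of both groups was below every thymus library, beside 6.64% and 14.2% of all genes with this pattern. The difference was -0.55 in each group (SE 0.10, limma adjusted p = 0.000127 in WT T-ALL, and SE 0.15, adjusted p = 0.00594 in Notch3 KO T-ALL). Jarid2 also had the narrowest range of the members over the WT T-ALL libraries, 0.59 on the log2 scale. It was called in both groups without each single library in turn, after quantile normalization and after the rescaling described above. In both groups the call was lost with the erythroid, T-cell or proliferation genes as a covariate (-0.45 to -0.51, adjusted p 0.0542 to 0.514). These covariates separated both leukemia groups from the controls without overlap, so their part cannot be told apart from the group.

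Mtf2, a Polycomb-like protein that binds unmethylated CpG-rich DNA, was 5.49, 5.85 and 6.09 at the lowest, median and highest thymus library and 5.99, 6.77 and 7.90 in WT T-ALL. Of the WT T-ALL libraries 13 of 14 were above all controls, with WT T-ALL 3 at 7.90 and WT T-ALL 202 at 7.81 the highest and WT T-ALL 126 at 5.99 within the thymus range. The difference was 1.02 (SE 0.24, limma adjusted p = 0.00114), a ratio of 2.02 on the scaled RPKM + 1 scale and the largest among the members. Notch3 KO T-ALL 1, 2 and 3 were at 5.87, 5.77 and 7.02, so 2 of 3 lay inside the thymus range, and their difference of 0.39 (SE 0.34, adjusted p = 0.392) did not pass the test. Under the rescaling without mitochondrial and hemoglobin genes, Mtf2 in WT T-ALL was still called, at 0.61 (adjusted p = 0.0262). The call was lost with the erythroid markers (1.05, adjusted p = 0.249) or the proliferation genes (1.04, adjusted p = 0.119) as a covariate. These differences were no smaller than the 1.02 without a covariate, and both covariates separated WT T-ALL from the controls without overlap.

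The ratio of Mtf2 to Jarid2, 2 partners that define alternative forms of PRC2, was 1.93 to 3.22 in thymus. In WT T-ALL it was 3.93 to 13.1, without overlap, while the knockout leukemias had 3.19, 4.42 and 9.66. Of the scaled RPKM of Jarid2, Mtf2 and Phf19 together, Jarid2 held 22.4% to 31.9% in the thymus libraries. This share was 6.84% to 18.1% in the WT leukemias and 8.93% to 20.8% in the knockout leukemias. Both ratios are descriptions of genes already tested singly.

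**Figure D3:**
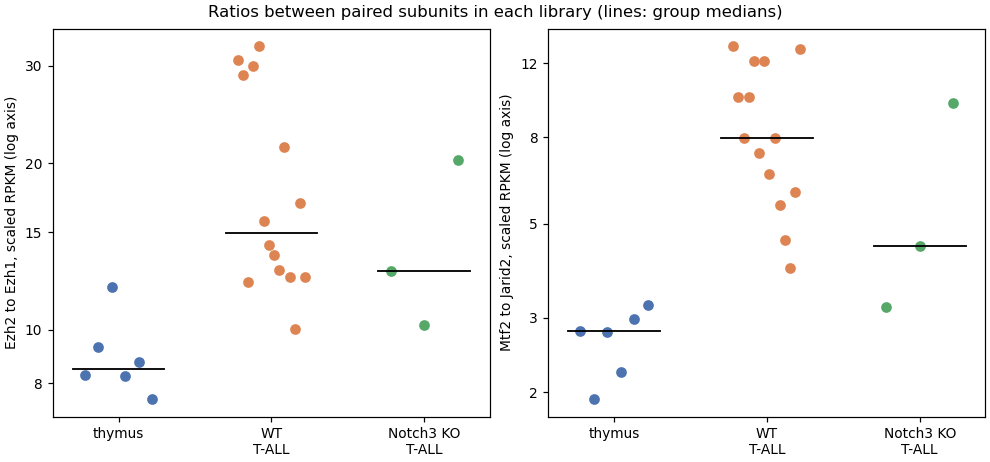
Ratio of Ezh2 to Ezh1 (left) and of Mtf2 to Jarid2 (right) in scaled RPKM for each library, on log axes, with lines at the group medians. The right panel has no WT T-ALL point below 3.93 and no thymus point above 3.22.

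Phf19, a Polycomb-like protein that reads methylated lysine 36 of histone H3, was 2.23, 2.49 and 2.74 at the lowest, median and highest thymus library. It varied more than any other member in WT T-ALL, from 1.51 in WT T-ALL 48 through a median of 2.91 to 3.71 in WT T-ALL 111, and was 3.60, 2.46 and 3.04 in Notch3 KO T-ALL. In WT T-ALL 9 of 14 libraries were above the thymus range and WT T-ALL 36 and 48 were below it. Its differences of 0.38 (SE 0.25, limma adjusted p = 0.200) and 0.56 (SE 0.36, adjusted p = 0.226) did not pass the test. Without WT T-ALL 14, 36 and 48, the 3 libraries with the most of the liver transcript Alb, the first was 0.61 with an adjusted p of 0.0104.

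Phf6 was 4.36, 4.72 and 5.03 at the lowest, median and highest thymus library and ran from 3.73 in WT T-ALL 126 through a median of 4.77 to 5.60 in WT T-ALL 36. The Notch3 KO T-ALL libraries, at 4.52, 4.02 and 4.27, were in the lower part of this range, and 2 of them were below all controls. The differences from thymus were 0.040 in WT T-ALL (95% interval -0.38 to 0.46, limma adjusted p = 0.879) and -0.44 in Notch3 KO T-ALL (-1.04 to 0.17, adjusted p = 0.247). Read as a single gene, the latter had a two-sided exact permutation p of 0.0476 (6 against 3 libraries, smallest possible 0.0119), and after the rescaling without mitochondrial and hemoglobin genes which lowered the median of all genes in this comparison to -0.32, it was called by limma (-0.89, adjusted p = 0.0130). With the T-cell markers as a covariate, Phf6 was called higher in WT T-ALL (0.94, adjusted p = 0.0238). The mean of these markers did not overlap between the controls (7.53 to 7.74) and WT T-ALL (6.46 to 7.34). This covariate therefore cannot be told apart from the group. Phf6 is X-linked like Rbbp7, and among libraries with Ddx3y below 0.5, not all matched to the controls in Xist, its difference in WT T-ALL was 0.22 (adjusted p = 0.313). No library had Phf6 near 0, since the lowest, WT T-ALL 126, held 12.2 scaled RPKM.

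Notch3 KO T-ALL against WT T-ALL asks whether the missing Notch3 receptor went with another level of these genes in the leukemia. None of the 10 members was called by limma, beside 0.617% of 11677 genes, and none had an unadjusted p under 0.05 in limma or an exact permutation p under 0.05. The differences farthest from 0 were Mtf2 at -0.63 (95% interval -1.35 to 0.085, adjusted p = 0.694), Phf6 at -0.48 (-1.08 to 0.12, adjusted p = 0.766) and Ezh1 at 0.36 (-0.053 to 0.78, adjusted p = 0.705). The intervals of Jarid2 (-0.32 to 0.32) and Suz12 (-0.48 to 0.27) were narrower. Differences inside these intervals are not excluded.

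Across the 14 WT T-ALL libraries the members did not move as 1 block. The range over these libraries was 2.21 on the log2 scale for Phf19, 1.91 for Mtf2, 1.88 for Phf6 and 1.34 for Rbbp4, against 0.59 for Jarid2. As a description of the 45 pairs, Phf19 and Phf6 ran in opposite directions (Pearson's r -0.756, Spearman's rho -0.815 over 14 libraries, r -0.649 without the 2 libraries farthest out in Phf19), while Ezh2 and Suz12 ran together (r 0.614, rho 0.600, r 0.773 without the 2 farthest). Which pair was closest depended on the measure, with Eed and Phf6 first by r (0.669, but 0.393 without the 2 farthest), Suz12 and Rbbp7 by rho (0.613) and Ezh2 and Rbbp7 by r without the 2 farthest (0.781). Phf19 was low where the mean of the T-cell markers was high (r -0.713, rho -0.648), and Phf6 was high there (r 0.639, rho 0.754). Rbbp7 went with the mean of the proliferation genes with r 0.709 and rho 0.732 (r 0.534 without the 2 farthest), and for Ezh2 these were 0.321 and 0.446 (0.141), and for Phf19 0.369 and 0.310 (0.547). Suz12 also went with these genes (r 0.5, rho 0.411, 0.548 without the 2 farthest), and Ezh1 ran the other way (r -0.512, rho -0.574, -0.376 without the 2 farthest). These libraries also differ in depth and in the share of other cells, and the part of either in these correlations was not tested.

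**Figure D4:**
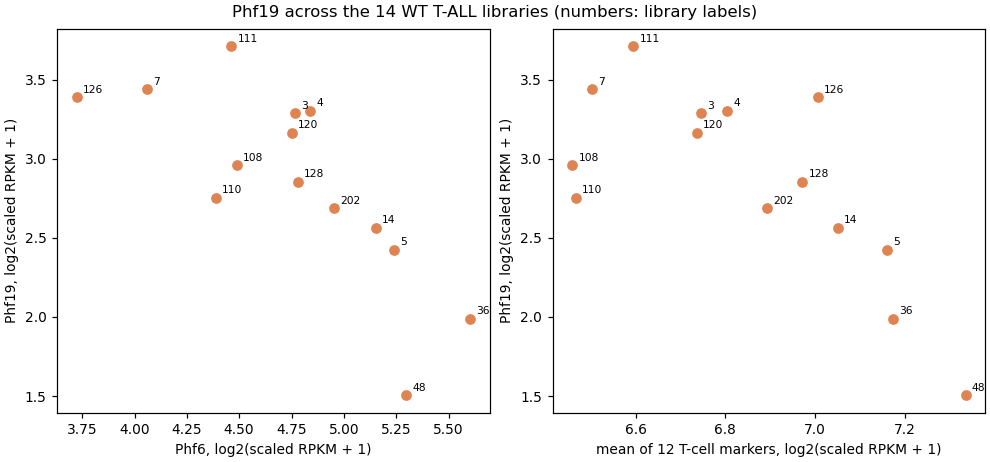
Phf19 (y axis, log2) in the 14 WT T-ALL libraries against Phf6 (left, log2) and against the mean of 12 T-cell markers (right, log2), with each point marked by its library number. WT T-ALL 48, at 1.51, and WT T-ALL 36 have the lowest Phf19 together with the 2 highest Phf6 values.

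The genes most like the 4 widest-ranging members over these libraries were found by Pearson's r among 11918 tested genes. For Phf19 they were Fanca (r 0.952), Cdca5 (r 0.948) and Espl1 (r 0.942), which act in DNA crosslink repair, sister chromatid cohesion and chromatid separation. For Phf6 they were Zfp780b (r 0.941), Sclt1 (r 0.931) and Klhl9 (r 0.928). Rbbp4 was most like Sar1a (r 0.925), Nme2 (r 0.911) and Rps20 (r 0.911). Mtf2 was most like Il15ra (r 0.837), Ccdc18 (r 0.824) and Rbmx2 (r 0.823).

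Ccdc18 is a near neighbor of Mtf2, which led to a look at the other genes within 500 kb of it, chosen after these values were seen. On chromosome 5 (GRCm38.p6) Mtf2 spans 108065660 to 108109219 on the plus strand, Tmed5 lies 12336 bases beyond its end, and Tmed5 and Ccdc18 start from opposite strands with 40 bases between their gene boundaries. Ccdc18 was 3.02 on average in thymus and 5.39 in WT T-ALL (difference 2.37, SE 0.35, limma adjusted p = 1.01e-05, no overlap). Tmed5 was 4.91 and 6.14 (difference 1.23, SE 0.24, adjusted p = 0.000241).

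WT T-ALL 3, the highest library for Mtf2, was also the highest for Tmed5 at 7.32 and for Ccdc18 at 6.82, and WT T-ALL 126 was the lowest for all 3. Tmed5 followed Mtf2 over the 14 libraries with r 0.783. Other genes of the window were also higher in WT T-ALL, namely Evi5 (1.76 from a thymus mean of 0.88, limma adjusted p = 5.23e-07, no overlap), Rpl5 (0.81, adjusted p = 0.00840), Glmn (0.62, adjusted p = 0.00511) and Pigg (0.41, adjusted p = 0.01003), and Pcgf3 (-0.85, adjusted p = 1.63e-05, no overlap), Gfi1 (-0.60, adjusted p = 0.00774) and Gak (-0.34, adjusted p = 0.0314) were lower. With Mtf2, Tmed5 and Ccdc18, these are 7 higher and 3 lower of 15 tested genes, beside 29.3% and 22.3% of all genes. Their r with Mtf2 over the 14 libraries was 0.237 for Evi5, 0.287 for Rpl5, 0.269 for Glmn and 0.071 for Pigg. Gak ran the other way over the WT T-ALL libraries (r -0.759), and Dr1, the next tested gene after Ccdc18, had r 0.350 and was not called (-0.22, adjusted p = 0.151). DNA copy number and read-through between neighbors were not analysed here.

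**Figure D5:**
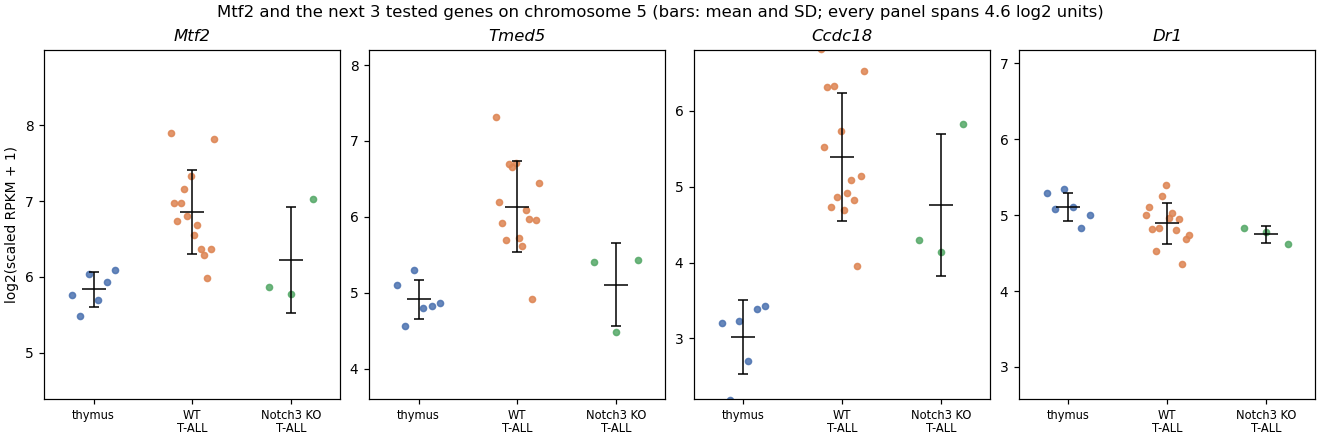
Log2(scaled RPKM + 1) of Mtf2 and of the next 3 tested genes on chromosome 5, Tmed5, Ccdc18 and Dr1, in every library by group, with the mean and SD as bars and libraries ordered by label number. The first 3 genes have means of 6.85, 6.14 and 5.39 in WT T-ALL against 5.84, 4.91 and 3.02 in thymus, while Dr1 has 4.89 against 5.11.

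Other subunits that join PRC2 were mostly lower or not called. Of 4 listed genes, 1 was lower in WT T-ALL and 3 were lower in Notch3 KO T-ALL, beside 22.3% and 16.3% of all genes. Phf1, the remaining Polycomb-like protein, was 4.03 in thymus, 2.57 in WT T-ALL (difference -1.46, SE 0.31, limma adjusted p = 0.000445) and 2.66 in Notch3 KO T-ALL (-1.37, adjusted p = 0.0187). So Phf1 and Mtf2, of the same family, were called in opposite directions in WT T-ALL. Lcor, which bridges to PRC2 through its splice forms, was lower in Notch3 KO T-ALL (-0.71, adjusted p = 0.0265).

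PRC1, the complex that adds ubiquitin to histone H2A and binds the mark of PRC2, had calls in both directions in WT T-ALL. Of 23 tested subunits, 4 were higher, 6 lower and 13 not called, beside 29.3% and 22.3% of all genes called higher and lower. In Notch3 KO T-ALL 0 were higher and 5 lower, beside 21.2% and 16.3%. The 4 higher in WT T-ALL include Pcgf2, which was below 1 scaled RPKM in every control and could pass the filter only through the leukemias. It is given as levels without a test, 0.34 on average in thymus and 1.79 in WT T-ALL. Of the other subunits, Yaf2 (0.75, SE 0.18, limma adjusted p = 0.00154) had the largest rise in WT T-ALL. Scmh1 (-1.19, SE 0.37, adjusted p = 0.0105) and Pcgf5 (-1.17, SE 0.23, adjusted p = 0.000255) had the largest falls. In Notch3 KO T-ALL the largest falls were Pcgf5 (-0.95, adjusted p = 0.0299) and Phc3 (-0.95, adjusted p = 0.00293).

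Of the 3 genes for H3K27 demethylases and their relative, Kdm6a and Kdm6b were lower in both leukemia groups. Kdm6a, the X-linked H3K27 demethylase, was 4.83 in thymus, 3.78 in WT T-ALL (-1.05, SE 0.19, limma adjusted p = 7.94e-05, no overlap) and 3.92 in Notch3 KO T-ALL (-0.90, SE 0.27, adjusted p = 0.0118). Among WT T-ALL libraries with Ddx3y below 0.5 it was 3.36 to 4.67, with numbers 48 and 202 near the controls, and in those with more Ddx3y it was 2.95 to 3.95. Kdm6b fell by 1.01 (SE 0.22, adjusted p = 0.000557) and by 1.30 (SE 0.32, adjusted p = 0.00263). Uty, the Y-linked relative, averaged 0.0055 in thymus and 1.62 in WT T-ALL. The controls had Ddx3y and Uty at or near 0, so Uty passed the filter only through the leukemias and is given without a test. Methyltransferases of H3K36 and H3K4, marks that PRC2 does not act on, were lower for 5 of 7 in WT T-ALL, beside 22.3% of all genes, and for 4 of 7 in Notch3 KO T-ALL, beside 16.3%. The largest falls were Kmt2c (-1.06 and -1.24, adjusted p = 6.50e-05 and 0.00104) and Ash1l (-0.93 and -0.99, adjusted p = 1.23e-05 and 0.000721).

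Rbbp4 and Rbbp7 also serve NuRD, the histone deacetylase and remodeling complex, and the chromatin assembly factor CAF-1. None of 11 NuRD subunits was higher in either group, 3 were lower in WT T-ALL and 2 in Notch3 KO T-ALL, beside 22.3% and 16.3% of all genes. The largest falls in WT T-ALL were Chd3 (-3.07, SE 0.63, limma adjusted p = 0.000365) and Mbd2 (-0.49, SE 0.14, adjusted p = 0.00472). Among 11 other partners 4 were higher in WT T-ALL, beside 29.3% of all genes, led by the CAF-1 subunits Chaf1a (1.02, SE 0.18, adjusted p = 9.12e-05) and Chaf1b (0.84, SE 0.15, adjusted p = 0.000116), and 2 were lower, Sin3b (-0.86, adjusted p = 0.00278) and Lin52 (-0.57, adjusted p = 0.000237). In Notch3 KO T-ALL, Chaf1a (1.42, adjusted p = 0.000275) and Hat1 (1.01, adjusted p = 0.00450), a histone acetyltransferase that works with Rbbp7, had the largest rises.

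Of 11 E2F and Rb genes, 3 were higher and 4 lower in WT T-ALL, beside 29.3% and 22.3% of all genes, and 4 were higher and 1 lower in Notch3 KO T-ALL, beside 21.2% and 16.3%. E2f1 (1.05, SE 0.19, limma adjusted p = 9.60e-05) and E2f6 (0.93, SE 0.15, adjusted p = 2.80e-05), the latter a repressor found in a PRC1 complex, had the largest rises in WT T-ALL, and Rbl2 (-1.52, SE 0.15, adjusted p = 3.15e-08) and E2f2 (-1.32, SE 0.22, adjusted p = 4.10e-05) the largest falls. The proliferation genes were higher for 20 and 19 of 22, beside 29.3% and 21.2% of all genes, led in WT T-ALL by Mcm6 (1.16, adjusted p = 1.82e-05) and Rrm1 (1.14, adjusted p = 1.21e-05) and in Notch3 KO T-ALL by Mcm5 (1.51, adjusted p = 0.000869) and Rrm1 (1.26, adjusted p = 0.000513).

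Loci that PRC2 is known to keep silent were mostly below the filter in all groups, since 6 of 29 could be tested. Of these, 4 passed it only through thymus or only through the leukemias, so they are given as levels without a test. Hoxa7 was at 1.29 on average in thymus and 0.044 in WT T-ALL, and Hoxa5 at 1.07 and 0.12. Hoxb4 was at 0.58 in thymus, 0.77 in WT T-ALL and 1.74 in Notch3 KO T-ALL.

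Cdkn2a, which encodes the tumor suppressors Ink4a and Arf, was 0.051 to 0.26 in thymus and 0.97 to 8.62 in WT T-ALL, where WT T-ALL 126 was far above the next library, WT T-ALL 3 at 4.56. The Notch3 KO T-ALL libraries were at 3.32, 7.79 and 2.45, so their mean rests on library 2. The remaining loci, Cdkn1c (0.52, limma adjusted p = 0.341) and Igf2bp3 (0.91, adjusted p = 0.133), were not called in WT T-ALL. The mark itself was not measured.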

How the data were processed

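Libraries were made with a KAPA stranded mRNA kit and, per the study's methods, aligned with OSA in ArrayStudio to mm10; versions and the annotation are not given in the sources used here. The authors deposited 1 table of log2(RPKM + 1) values, scaled in each library to a 75th percentile of 10 RPKM. The table holds no read counts, and relative depth was read from the steps of low values. Gene symbols turned into dates (27) were restored from gene identifiers.

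Groups were compared with limma 3.58.1 (lmFit, then eBayes with trend and robust) in R 4.3.3 on the deposited log2 values, over genes reaching a scaled RPKM of 1 in 3 or more libraries, with Benjamini-Hochberg adjustment and a threshold of 0.05. Both thymus comparisons came from a fit of the 3 groups together, and the leukemia groups were compared in a fit of their own. The labels do not say more about how samples were taken, so p-values measure the spread between these samples. Alternatives were offsets, filters, scalings, covariates, exact permutation tests, a replicate block and libraries left out.

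The members, gene lists and alternatives were chosen with earlier results of these data known. Named from the other chromatin and cell cycle lists were up to 2 rises and 2 falls of largest size among called genes per comparison with thymus. Genes whose reads could also come from a copy were checked over 100-base windows: for Rbbp7, 1.86% of its longest transcript (GENCODE M21) also occurs in the pseudogene Gm6382, and for the other 9 members 0%.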

Additional observations from a re-analysis of the deposited data

How the results depend on the processing

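Leaving out 1 library at a time left 4 to 6 members called in WT T-ALL against thymus (genes 5431 to 6313), 1 to 3 in Notch3 KO T-ALL against thymus (genes 2859 to 4292, the fewest without Notch3 KO T-ALL 3) and 0 in Notch3 KO T-ALL against WT T-ALL (genes 3 to 205). The 3 members called in Notch3 KO T-ALL fell to 1, Jarid2, when thymus control 5 or 6 or the knockout library 1 or 3 was left out. For WT T-ALL against thymus, the rescaling without mitochondrial and hemoglobin genes gave 3 members (1 higher). As covariates, the erythroid markers gave 1 member (Ezh1) and 1000 genes, the T-cell markers 4 members (Ezh1, Mtf2, Rbbp7 and Phf6) and 3327 genes, and the proliferation genes 0 members and 1286 genes. The means of all 3 lists separated the controls from both leukemia groups, so these covariates cannot be told apart from the group. For Notch3 KO T-ALL against thymus, quantile normalization gave 1 member, covariates gave 0 members each (230, 2174 and 745 genes, in the same order), the exact permutation test, unadjusted, gave 5, the libraries without thymus controls 5 and 6 gave 1, and those with Ddx3y below 0.5 gave 0. In this last setting Notch3 KO T-ALL is 1 library, number 3, assumed to vary like the other groups, so its values say nothing on stability. Of the calls in WT T-ALL, 3493 of 6150 were higher, against 2921 of 6022 after quantile normalization and 1857 of 6521 after the rescaling; in Notch3 KO T-ALL these were 2527 of 4475, 2059 of 4509 and 1264 of 4916. The 72 genes called between the leukemia groups became 39 and 120 with offsets of 0.1 and 5, 134 without a filter, 6 with a filter at 5, 254 with 3 groups in the fit, 18, 44 and 44 with the 3 covariates, 45 without WT T-ALL 14, 36 and 48 and 0 among libraries with Ddx3y below 0.5, again with 1 knockout library (508 at an unadjusted p under 0.05), and no member was called in any. The cause of these moves was not tested.

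Same-numbered libraries did not deviate together (r -0.235 to 0.151, and 2 of 6 libraries correlated best with their own number in each comparison with thymus), so the numbers do not pair the samples. A replicate block gave 3 members (Ezh1, Mtf2 and Rbbp7) and 2926 genes in WT T-ALL against thymus and 0 members and 3643 genes in Notch3 KO T-ALL against thymus; Jarid2 was -0.53 (adjusted p = 0.1002) and -0.62 (adjusted p = 0.0560) in it. No paired analysis was possible because of a single shared number for the comparison of the leukemia groups.

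Signs that turned, apart from the covariate fits for Rbbp4 and Rbbp7, were of members not called. Against thymus in WT T-ALL, the rescaling gave -0.16 for Eed, -0.37 for Ezh2, -0.32 for Suz12 and -0.36 for Phf6, and quantile normalization -0.18 for Ezh2 and -0.064 for Suz12. The erythroid covariate gave -0.0075 for Eed and -0.44 for Rbbp4, the T-cell covariate -0.28 for Ezh2, -0.021 for Suz12 and -0.55 for Phf19, and the proliferation covariate -0.32 for Ezh2, -0.14 for Rbbp4, -0.074 for Rbbp7, -0.34 for Suz12 and -0.30 for Phf6. Phf6 was -0.030 to 0.12 with 1 library left out, -0.094 without thymus controls 5 and 6 and -0.12 without WT T-ALL 14, 36 and 48. Against thymus in Notch3 KO T-ALL, the rescaling gave -0.049 for Eed, -0.33 for Ezh2 and -0.074 for Mtf2, quantile normalization -0.14 for Ezh2, the erythroid covariate -0.61 for Rbbp4, the T-cell covariate -0.25 for Ezh2, 0.63 for Phf6 and -0.54 for Phf19, and the proliferation covariate 0.015 for Ezh1, -0.32 for Ezh2, -0.055 for Rbbp4 and -0.27 for Rbbp7. With 1 library left out Mtf2 was -0.015 to 0.61 and Suz12 -0.082 to 0.11, and with Ddx3y below 0.5 Suz12 was 0.097. Between the leukemia groups, 1 library left out gave -0.031 to 0.15 for Ezh2, -0.16 to 0.11 for Jarid2, -0.14 to 0.18 for Rbbp7, -0.17 to 0.023 for Suz12 and -0.11 to 0.46 for Phf19. Jarid2 was -0.00028 with quantile normalization, -0.046 with the rescaling, -0.027 without WT T-ALL 14, 36 and 48, -0.0089 without WT T-ALL 110 and -0.14 with Ddx3y below 0.5. Ezh2 was -0.019 with the proliferation covariate, Rbbp4 -0.13 with the erythroid covariate, Rbbp7 0.030 with the T-cell covariate and 0.050 without WT T-ALL 14, 36 and 48, and Phf19 -0.051 without those 3.

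Depth limits low genes most, and 3 knockout libraries limit both comparisons with them. The settings that left out named libraries or used Ddx3y were chosen after seeing the data.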

Other observations

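WT T-ALL 126 stood at the low end for several members at once, a pattern noticed after the values were seen. It held the lowest of the 14 WT T-ALL values for Eed (4.57), Suz12 (5.55), Mtf2 (5.99) and Phf6 (3.73), the next to lowest for Ezh2 (6.06) and the next to highest for Rbbp4 (8.36). In the same library Cdkn2a was 8.62, the highest of all 23 libraries, and Kdm6a was 2.95, the lowest. Notch3 KO T-ALL 2 had the other Cdkn2a value of this size, 7.79, with Eed at 5.21, Suz12 at 6.23 and Mtf2 at 5.77. The remaining leukemia libraries held Cdkn2a at 0.97 to 4.56. This was not tested.

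Among the controls, thymus controls 5 and 6 differed from the other 4 in a similar way for several members. Eed was 4.78 and 4.56 in these 2 against 5.03 to 5.36 in the others, and Rbbp4 was 7.33 and 6.81 against 7.48 to 7.80. Their proliferation genes were also lower, with means of 5.83 and 5.30 against 5.93 to 6.08. Their relative depth was 0.443 and 0.277, against 0.804 to 1.00 in the others. The labels give no batch, and the part of depth in these values was not tested.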
